A study of Mus musculus with 9 samples.

Results

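The olfactomedin family is a group of glycoproteins that share a conserved olfactomedin domain and are mostly secreted. Its members described here are myocilin (Myoc), the noelins Olfm1, Olfm2 and Olfm3, and the olfactomedin-like genes Olfml1, Olfml2a, Olfml2b and Olfml3. They were taken by their gene symbols and are 8 of the 22092 genes with counts. Ribosome-bound mRNAs were purified by TRAP (translating ribosome affinity purification) and sequenced in 9 libraries from mice of 2 months. All 9 came from the same strain, labelled Aldh1L1 JD130 with the genotype tg:Aldh1L1-L10aGFP, in which the ribosomal protein L10a fused to GFP is driven by the promoter of Aldh1l1, a gene of astrocytes. Whole astrocyte TRAP was performed on brain (3 libraries, 1 brain each, choroid plexus removed), and endfeet TRAP on purified brain vessels (6 libraries), to which the perivascular endfeet of astrocytes stay attached. Each endfeet library pooled the vessels of several mice, the labels name no treatment, and no library without the transgene was analysed here. The comparison asked which mRNAs were more abundant on astrocyte ribosomes of the vessel preparation than on those of whole astrocytes.

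Myocilin is best known from the trabecular meshwork of the eye, where mutations that keep the protein inside the cell cause glaucoma. The noelins are secreted proteins of the nervous system that bind AMPA receptors at synapses, and Olfm1 is also known as pancortin. Olfml2a and Olfml2b encode photomedins, which bind glycosaminoglycans of the extracellular matrix, and Olfml3 encodes a secreted protein that binds the growth factor BMP4 and is known in brain from microglia. Endfeet are the astrocyte processes that surround brain vessels and face their basal lamina.

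The protein products fell into recognisable subgroups. The noelins shared the most residues, with 67.9% identity between Olfm1 and Olfm3, 62.2% between Olfm2 and Olfm3, and 58.5% between Olfm1 and Olfm2, over the aligned part of their translated coding sequences. The photomedins Olfml2a and Olfml2b shared 50.4%. Myoc shared 30.2% to 39.9% with each of the 7 others. Its aligned parts ran from 62 residues (Olfml1) to 433 (Olfml2a), so these percentages do not rank its relatives.

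The 3 members whose mRNA rose in endfeet TRAP, Myoc, Olfml2a and Olfml3, lie on different chromosomes and are shown with the 250 bases before their start sites, since these are the sequences next to the genes that the comparison singles out. Sequences are from RefSeq (build GRCm38.p6), 5′ to 3′ along the gene's strand. Capitals mark matches, on either strand, to the TATA box TATAAA, the GC box GGGCGG or the STAT motif TTCNNNGAA.
Myoc, chr1:162638900-162639149, plus strand: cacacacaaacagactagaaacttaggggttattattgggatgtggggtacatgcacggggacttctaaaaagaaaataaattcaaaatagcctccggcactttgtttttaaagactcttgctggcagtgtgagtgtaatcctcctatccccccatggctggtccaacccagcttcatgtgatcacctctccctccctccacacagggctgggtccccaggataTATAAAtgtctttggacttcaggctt
Olfml2a, chr2:38931730-38931979, plus strand: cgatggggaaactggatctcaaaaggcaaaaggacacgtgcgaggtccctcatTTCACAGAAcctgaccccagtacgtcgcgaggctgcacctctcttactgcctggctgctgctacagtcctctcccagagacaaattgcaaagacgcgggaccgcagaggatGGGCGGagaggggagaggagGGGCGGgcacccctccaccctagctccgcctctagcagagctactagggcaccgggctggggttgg
Olfml3, chr3:103738002-103738251, minus strand: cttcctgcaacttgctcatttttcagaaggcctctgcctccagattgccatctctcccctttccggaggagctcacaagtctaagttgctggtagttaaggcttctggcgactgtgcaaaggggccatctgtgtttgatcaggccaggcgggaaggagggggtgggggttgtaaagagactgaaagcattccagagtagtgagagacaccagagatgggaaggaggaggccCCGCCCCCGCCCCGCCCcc
The Myoc window held 1 TATAAA and 2 CpG dinucleotides. The Olfml2a window held 2 GC boxes, 1 STAT motif and 13 CpG dinucleotides, and the Olfml3 window held 3 GC boxes and 6 CpG dinucleotides. No motif of the search was present in all 3 windows. Among 32851 windows of the same length before start sites, 12.4% held TATAAA, 32.7% GGGCGG and 7.02% TTCNNNGAA, and the median number of CpG dinucleotides was 6. A match describes the letters of the window and no bound factor.

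Depth differed between the groups and bears on the low members. Whole astrocyte libraries held 35984144 to 43521208 counts on genes and endfeet libraries 2319495 to 13450588. An observed 0 was taken to allow up to 3 counts. This floor corresponds to 0.0689 to 0.0834 CPM (counts scaled to the same library total) in whole astrocyte TRAP and 0.223 to 1.29 CPM in endfeet TRAP. Whole astrocyte libraries correlated with each other at r = 0.988 to 0.992 over log-scaled genes and endfeet libraries at 0.533 to 0.863. Endfeet 6 was the shallowest. The mRNA of Aqp4, the water channel of endfeet, rose in endfeet TRAP (log2 fold change 1.67, adjusted p = 0.00635, edgeR), while that of Aldh1l1, the gene whose promoter drives the tag, fell by 2.38 (adjusted p = 9.36e-04, edgeR).

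All 8 members passed the filter on low counts. With an adjusted p of at most 0.05 in edgeR's quasi-likelihood test over 14427 genes, 3 members rose in endfeet TRAP (Myoc, Olfml2a and Olfml3), against 20.7% of all genes tested, and 0 fell, against 13.9% (34.6% in either direction). The same 3 members, and no other, had every endfeet library above every whole astrocyte library in normalised count, as 19.1% of all genes tested had. In 1 member, Olfm3, every endfeet library was below, as in 23.3% of genes. Their median log2 fold change was 0.61, beside 0.10 for all genes tested. With 8 members, these counts do not set the family apart from other genes. At an unadjusted p under 0.05 no member was lower in edgeR or DESeq2, and 1 was lower in limma voom with group weights (Olfm3).

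**Figure D1:**
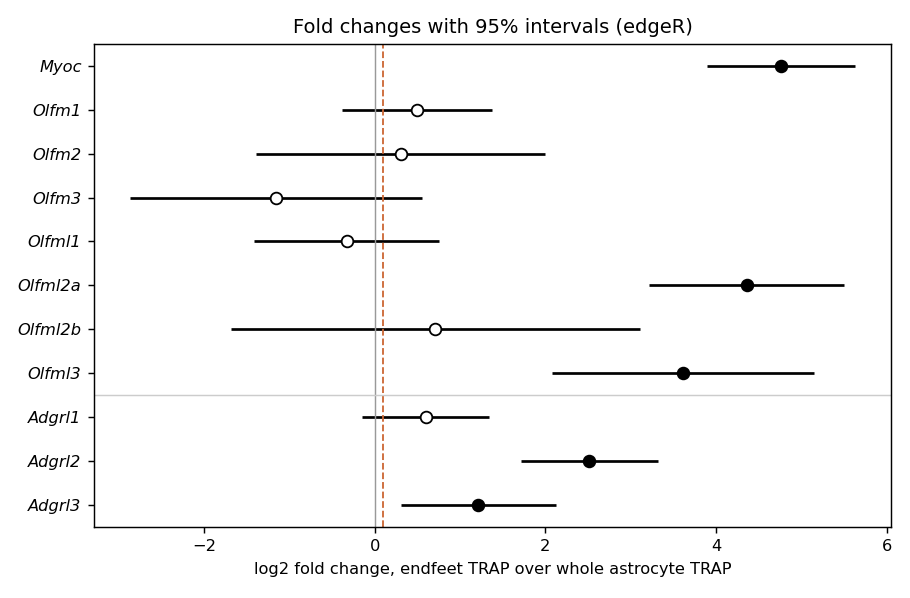
Log2 fold change of endfeet TRAP over whole astrocyte TRAP (horizontal axis) for the 8 members and, under the grey line, for 3 other genes with an olfactomedin domain; points are edgeR estimates, bars 95% intervals, filled points have an adjusted p of at most 0.05, and the dashed line is the median of all genes tested (0.10). Myoc, Olfml2a and Olfml3 lie between 3.61 and 4.76, while the intervals of the other 5 members include 0.

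Myoc was the member with the highest level in endfeet TRAP and the largest increase. Its only annotated transcript has 3 exons (chr1:162639155-162649693, plus strand, GRCm38). In whole astrocyte TRAP it had 35.1, 29.9 and 40.5 CPM in libraries 1 to 3. In endfeet TRAP it had 940, 778, 693, 1152, 1260 and 501 CPM in libraries 1 to 6. The lowest endfeet library was thus far above the highest whole astrocyte library, and the endfeet libraries spread over a 2.52-fold range. Its normalised counts were 429 ± 62.9 (SD, n = 3) in whole astrocyte TRAP and 11728 ± 3960 (SD, n = 6) in endfeet TRAP, with a log2 fold change of 4.76 (SE 0.402), a 27.0-fold difference with a 95% interval of 14.8 to 49.3 (adjusted p = 2.16e-06, edgeR). Ranked by CPM per kb of transcript among all 22092 genes, Myoc was at position 4031 in whole astrocyte TRAP and at position 44 in endfeet TRAP. Myocos, an antisense gene, overlaps 93 exon bases of Myoc and had 114 counts in the 9 libraries together, and whether the counting used strand is not given in the sources used here.

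**Figure D2:**
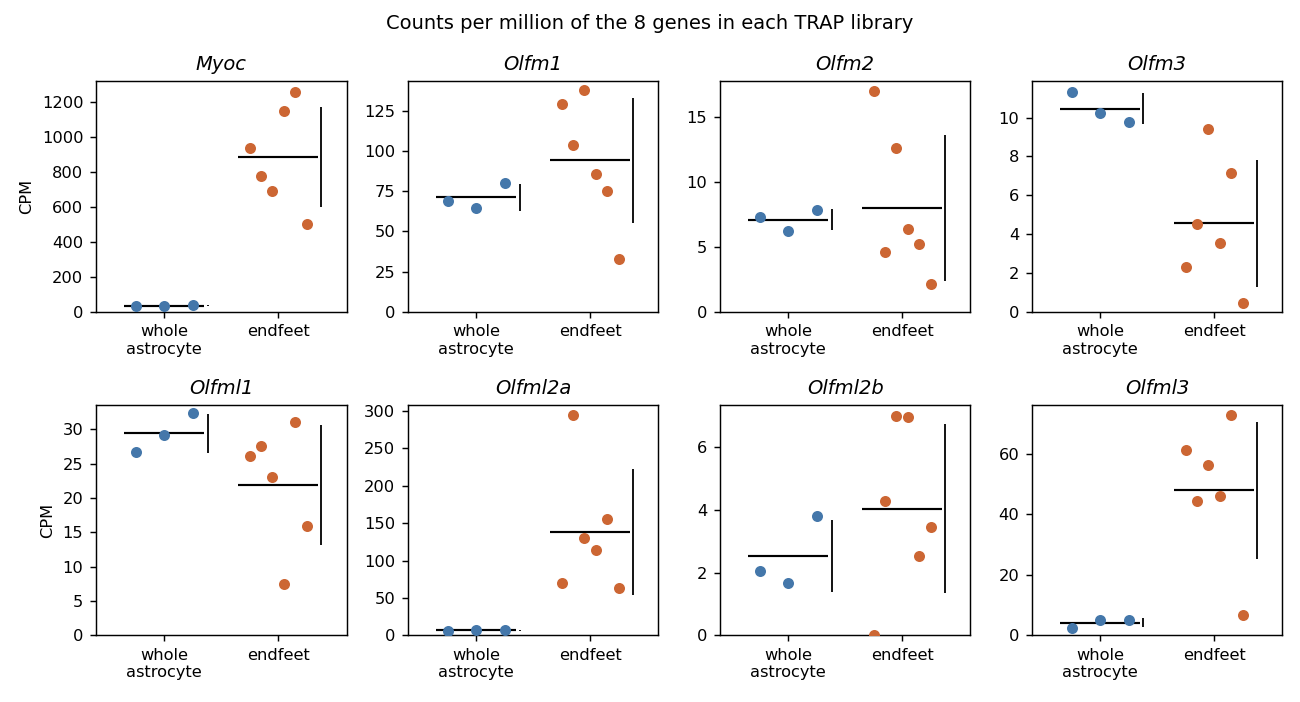
CPM (vertical axis, linear, from 0 and scaled to each gene) of the 8 members in the 3 whole astrocyte (blue) and 6 endfeet (orange) TRAP libraries, drawn from left to right in library order; each point is 1 library, horizontal lines are group means and vertical lines the SD. The groups are apart for Myoc, Olfml2a and Olfml3, with endfeet above, and for Olfm3, with endfeet below, and they overlap for the other 4.

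The photomedin genes Olfml2a and Olfml2b were both low in whole astrocyte TRAP, and only the former passed the test. Olfml2a (chr2:38931978-38963753, plus strand, 8 exons) had 6.53, 7.44 and 7.10 CPM in whole astrocyte TRAP. In endfeet TRAP it had 69.7, 294, 130, 114, 155 and 63.8 CPM. Every endfeet library was above the whole astrocyte libraries, with endfeet 2 set apart at the top. The log2 fold change was 4.36 (SE 0.531), or 20.5-fold with an interval of 9.26 to 45.4 (adjusted p = 4.30e-05, edgeR), and it was 4.06 without endfeet 2.

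Olfml2b (chr1:170644532-170682789, plus strand, 8 exons) was low in endfeet TRAP as well. It had 2.06, 1.66 and 3.81 CPM in whole astrocyte TRAP and 0, 4.28, 6.99, 6.94, 2.53 and 3.45 CPM in endfeet TRAP. The 0 of endfeet 1 allows up to 0.461 CPM at its depth. The groups overlapped, and the log2 fold change of 0.71 had a 95% interval of -1.68 to 3.11 (adjusted p = 0.652, edgeR), which includes increases of several fold as well as none. The difference between the responses of Olfml2a and Olfml2b was not tested.

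Olfml3, the BMP4-binding member (chr3:103722222-103738001, minus strand), was low in whole astrocyte TRAP and rose in endfeet TRAP. It had 2.39, 5.13 and 5.08 CPM in the former. It had 61.4, 44.4, 56.2, 46.0, 72.8 and 6.90 CPM in the latter. Endfeet 6 lay near the whole astrocyte libraries, at 16 counts, and the other 5 were well above them. The log2 fold change was 3.61 (SE 0.710), or 12.2-fold with an interval of 4.22 to 35.4 (adjusted p = 0.00164, edgeR). The model with the most counts, Olfml3-202, is annotated as a retained intron, but the coding model Olfml3-201 had the same counts in every endfeet library (400, 384, 748, 583, 979 and 16) and 1 to 3 counts fewer in each whole astrocyte library. The single-exon coding model Olfml3-204 had 0 counts in all 9 libraries.

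Olfml1 (chr7:107567446-107591094, plus strand, 3 exons) did not pass the test. It had 26.7, 29.2 and 32.4 CPM in whole astrocyte TRAP and 26.1, 27.6, 23.0, 7.49, 31.1 and 16.0 CPM in endfeet TRAP. The groups overlapped, with endfeet 4 the lowest. In normalised counts 2 endfeet libraries (1 and 5) were above every whole astrocyte library and 3 (3, 4 and 6) below, whereas in CPM 0 were above every whole astrocyte library. The log2 fold change was -0.33 with an interval of -1.41 to 0.76 (adjusted p = 0.644, edgeR).

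None of the noelins passed the test. Olfm1 (chr2:28192992-28230736, plus strand) was the most abundant of them. It had 69.0, 64.4 and 80.3 CPM in whole astrocyte TRAP and 129, 104, 138, 85.9, 75.3 and 32.8 CPM in endfeet TRAP. In 4 endfeet libraries it was above every whole astrocyte library in normalised count and in 1, endfeet 6, below. The log2 fold change was 0.50 with an interval of -0.38 to 1.38 (adjusted p = 0.365, edgeR).

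Olfm2 (chr9:20667690-20746349, minus strand) had 7.28, 6.22 and 7.81 CPM in whole astrocyte TRAP and 17.0, 4.62, 12.6, 6.39, 5.20 and 2.16 CPM in endfeet TRAP. Its endfeet libraries lay on both sides of the whole astrocyte libraries, with a log2 fold change of 0.30 (interval -1.39 to 2.00, adjusted p = 0.794, edgeR). Without endfeet 1 the estimate was -0.19.

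Olfm3 (chr3:114904078-115125722, plus strand), also called optimedin, had 11.3, 10.2 and 9.79 CPM in whole astrocyte TRAP. In endfeet TRAP it had 2.30, 4.51, 9.40, 3.55, 7.14 and 0.431 CPM. The endfeet values all lay under those of whole astrocyte TRAP, and endfeet 6 held a single count. Still, the log2 fold change of -1.15 (SE 0.790, interval -2.86 to 0.55) did not pass the threshold (adjusted p = 0.279, edgeR).

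The endfeet libraries that carry the same number series as the whole astrocyte libraries (endfeet 4, 5 and 6) were compared with them alone, since endfeet 1, 2 and 3 carry another series whose meaning is not stated. In that comparison the log2 fold changes were 4.73 for Myoc (adjusted p = 1.82e-04), 3.93 for Olfml2a (3.83e-04) and 3.26 for Olfml3 (0.0178), all in edgeR. Those of Olfm1 and Olfm2 turned to -0.18 and -0.65 and did not pass the test (adjusted p = 0.719 and 0.428, edgeR).

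Compared per kb of transcript, the order of the members differed between the groups. Olfml3 was scaled by the length of Olfml3-202 (3981 bases), whereas the coding model Olfml3-201 is longer (5465 bases). Its values per kb, its place and its share depend on this choice and would be lower with the coding model. In whole astrocyte TRAP, Olfm1 was first with 25.8 ± 2.97 CPM per kb (SD, n = 3), above Olfml1 in all 3 libraries. Olfml1 (17.5 ± 1.67) and Myoc (17.0 ± 2.56) followed and did not differ beyond their spread, Olfml1 being the higher in 1 of 3 libraries. Olfm2 came next with 3.87 ± 0.443 and Olfm3 with 2.25 ± 0.172, each above the next gene in all 3 libraries. Olfml2a (1.26 ± 0.0820), Olfml3 (1.06 ± 0.394) and Olfml2b (0.812 ± 0.370) closed the order, and each of these neighbours kept its place in only 2 of 3 libraries.

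In endfeet TRAP, Myoc was first with 428 ± 138 CPM per kb (SD, n = 6), above Olfm1 in all 6 libraries. Olfm1 (34.2 ± 14.0) and Olfml2a (24.7 ± 15.1) could not be separated, Olfm1 being higher in 4 of 6. Olfml1 (13.0 ± 5.17) and Olfml3 (12.05 ± 5.69) were likewise within each other's spread, again with 4 of 6. Olfm2 had 4.36 ± 3.07, Olfml2b 1.30 ± 0.869 and Olfm3 0.980 ± 0.702, the last pair overlapping.

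Expressed as shares of the summed CPM per kb of the 8 genes, Myoc took 22.6% to 25.4% in whole astrocyte TRAP and 74.8% to 88.2% (median 84.1%) in endfeet TRAP. Olfm1 took 36.6% to 37.6% and 3.88% to 11.2%, and Olfml1 23.8% to 27.2% and 0.707% to 3.40%. Shares within a sum move together, so that the smaller shares of Olfm1 and Olfml1 in endfeet TRAP do not show that their own levels fell.

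**Figure D3:**
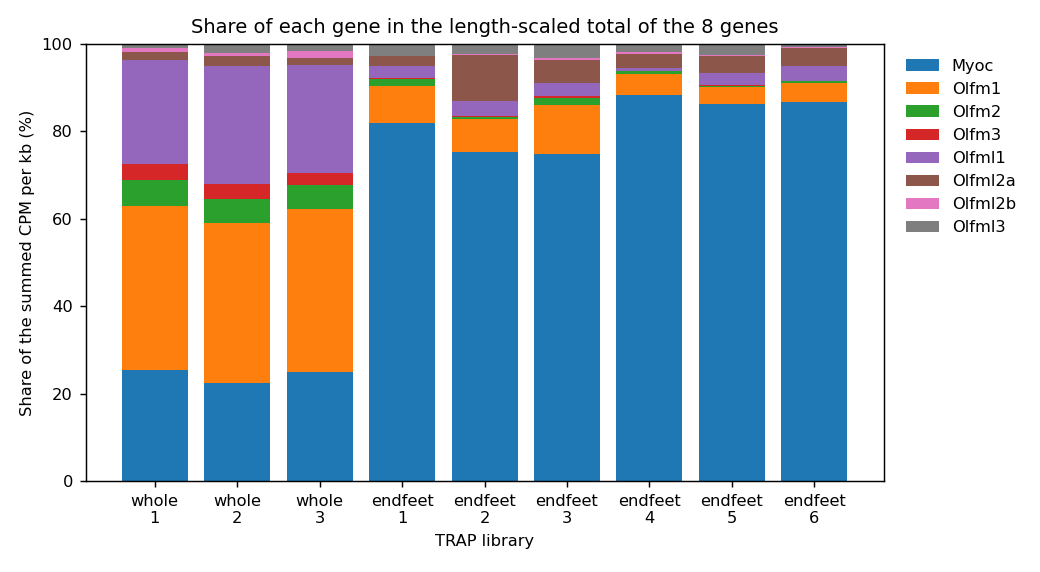
Stacked bars of the share of each member in the summed CPM per kb of the 8 genes (vertical axis, percent) in each of the 9 TRAP libraries (horizontal axis). Myoc takes 22.6% to 25.4% of the bar in the whole astrocyte libraries and 74.8% to 88.2% in the endfeet libraries.

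Olfm1 is annotated with long and short transcript models, and the short forms of noelin are known to end before the olfactomedin domain. The long model Olfm1-201 and the short model Olfm1-203 share exons 1 to 3 and then continue into different exons 4, at chr2:28214609-28214828 and chr2:28214101-28214425. The 15 bases on each side of these junctions are shown because they are what tells the models apart, with exon 4 in capitals (GRCm38, plus strand).
Olfm1-201, long: gccaggcagttcaagGCAATAAAAGCGAAA
Olfm1-203, short: gccaggcagttcaagGGCTAACTTAAAGAG
Reads of the shared exons were counted on both models, and reads across the 2 junctions were not counted apart. The percentages below therefore also depend on coverage along the gene and do not measure the use of either model. The counts of the short model were 60.3%, 63.4% and 60.2% of those of the long model in whole astrocyte TRAP. They were 70.0%, 31.4%, 36.6%, 33.7%, 25.5% and 67.1% in endfeet TRAP. The whole astrocyte libraries were close to each other, whereas 4 endfeet libraries (2 to 5) were far below and endfeet 1 and 6, those with the fewest total counts, above. The means, 61.3% ± 1.79 (SD, n = 3) and 44.0% ± 19.3 (SD, n = 6), gave a difference that did not pass an exact permutation test (two-sided p = 0.238, smallest possible 0.0238).

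**Figure D4:**
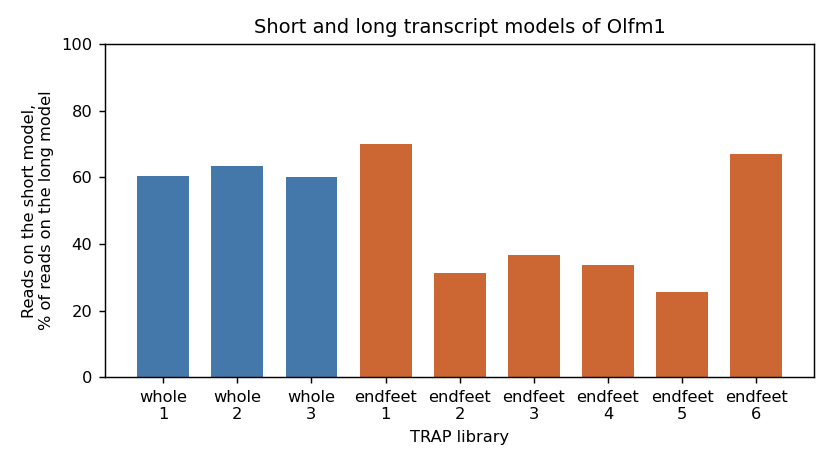
Counts of the short Olfm1 model as a percentage of those of the long model (vertical axis) in each TRAP library (horizontal axis; blue whole astrocyte, orange endfeet). The whole astrocyte bars stand at 60.2% to 63.4%, 4 endfeet bars at 25.5% to 36.6%, and endfeet 1 and 6 at 70.0% and 67.1%.

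Other genes with an olfactomedin domain were examined beside the family. Of 5 such genes, 3 had enough counts to be tested. Of these, 2 rose and 0 fell, against 20.7% and 13.9% of all genes tested. At an unadjusted p under 0.05, 0 fell in edgeR, DESeq2 and limma voom. Their median log2 fold change was 1.21, beside 0.10 for all genes tested, and so few genes do not set the group apart. The 3 tested are the latrophilins, adhesion receptors of the synapse that carry the domain on a membrane protein. Adgrl2 had 19.1, 13.1 and 19.0 CPM in whole astrocyte TRAP and between 56.9 and 142 CPM (median 85.5) in endfeet TRAP, which gave a log2 fold change of 2.51 with SE 0.372 (adjusted p = 1.98e-04 in edgeR). Adgrl3 had 71.2, 55.1 and 69.6 CPM and between 75.1 and 223 CPM (median 131), with a log2 fold change of 1.21 and SE 0.421 (adjusted p = 0.0400 in edgeR). The groups were apart for both, but the call of Adgrl3 held in 12 of 21 alternatives, with an adjusted p of up to 0.158. Adgrl1 had a log2 fold change of 0.60 (adjusted p = 0.198, edgeR).
Olfm4, a secreted member known from gut epithelium and neutrophils, had 26, 12 and 32 counts in whole astrocyte TRAP and 0 in every endfeet library. The former are only 0.333 to 0.735 CPM, while a 0 in endfeet TRAP allows up to 0.223 to 1.29 CPM, depending on the library. The zeros of Olfm4 therefore do not show a decrease. Gldn, which encodes gliomedin of the node of Ranvier, had at most 28 counts in a library. Olfm5, which is outside the list and was looked up after the values were seen, had 8 counts in endfeet 3 and 0 in the 8 other libraries.

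Of 18 genes whose proteins are known to bind a member, 9 rose in endfeet TRAP and 0 fell, against 20.7% and 13.9% of all genes tested, with a median log2 fold change of 1.69. The 9 called became 5 with endfeet 4 to 6 only and 4 without whole astrocyte 1 or without whole astrocyte 2. The largest change was that of Fn1 (fibronectin, a matrix protein that myocilin binds), with 1.03, 2.14 and 2.50 CPM in whole astrocyte TRAP, 444 to 1120 CPM in endfeet TRAP and an increase of 8.90 on the log2 scale (SE 0.469, adjusted p = 9.78e-08, edgeR). Sparc, another matrix protein, rose by 2.51 (adjusted p = 9.79e-05, edgeR). Among Wnt pathway partners of myocilin, the secreted inhibitors Wif1 and Sfrp1 rose by 4.28 and 2.96 and the receptor Fzd7 by 2.86 (adjusted p = 0.0220, 0.0127 and 3.79e-04, edgeR). Wif1 had 6 to 11 counts in whole astrocyte TRAP and 0 in endfeet 6, and Sfrp1 had 6.63 CPM in endfeet 4, below the whole astrocyte libraries.

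The receptor kinase gene Erbb2 rose by 2.80 (adjusted p = 0.0308, edgeR), although endfeet 1, at 1.23 CPM, was below the 1.38 to 1.89 CPM of whole astrocyte TRAP. In normalised counts endfeet 1 (19.6) lay within the whole astrocyte range of 16.7 to 23.4. Bmp4, the ligand that Olfml3 binds, rose by 3.61 (adjusted p = 0.0116, edgeR). Bmp4 had 2.08, 3.69 and 4.62 CPM in whole astrocyte TRAP and 12.7, 80.2, 58.9, 5.92, 83.0 and 6.47 CPM in endfeet TRAP, where endfeet 4 and 6 lay close to the whole astrocyte libraries. Of the AMPA receptor subunits, to which noelins bind, Gria1 and Gria3 rose by 1.31 and 1.08 (adjusted p = 0.00281 and 0.0458, edgeR; Gria3 in endfeet 6 lay among the whole astrocyte libraries), whereas Gria2 and Gria4 had log2 fold changes of 0.01 and 0.80 and did not pass. Fn1, Sparc, Fzd7 and Gria1 passed in 21 of 21 alternatives, Wif1 in 16 of 19, Sfrp1 in 17 of 21, Erbb2 in 14 of 20, Bmp4 in 18 of 21 and Gria3 in 8 of 21. With limma voom 1 partner was lower after adjustment (Flot1, which encodes the membrane scaffold protein flotillin-1), while edgeR and DESeq2 called 0, also at an unadjusted p under 0.05.

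Markers of other cells of the vessel preparation moved in the same direction as Myoc, Olfml2a and Olfml3. In endfeet TRAP 12 of 12 endothelial markers rose (median log2 fold change 9.57), with a summed level of 2753 to 5942 CPM, against 7.64 to 9.60 CPM in whole astrocyte TRAP. Cldn5 of tight junctions rose by 9.32. Likewise, 12 of 12 mural markers rose (median 5.60, summed 3379 to 8500 against 44.0 to 53.4 CPM), among them the smooth muscle actin gene Acta2, by 7.44. Of 10 fibroblast markers 9 rose (median 4.98, summed 1164 to 2278 against 61.7 to 109 CPM), with the collagen gene Col1a1 up by 5.89. Of 14 markers of microglia and macrophages 10 rose and 0 fell (median 3.43, summed 244 to 500 against 37.1 to 42.4 CPM), with the receptor gene Cx3cr1 up by 4.26. Cx3cr1 had 3.69, 21.0, 18.5, 8.20, 10.5 and 44.4 CPM in endfeet 1 to 6.

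Of 9 choroid plexus markers 8 rose (median 5.34, summed 7115 to 75786 against 79.5 to 1632 CPM), led in level by the transthyretin gene Ttr with 6450 to 71018 CPM in endfeet TRAP. Of 8 ependymal markers 6 rose (median 2.73, summed 187 to 253 against 31.3 to 43.4 CPM), with Foxj1 up by 2.16. Neuron markers went the other way, with 3 of 11 lower and 0 higher (median -1.36, summed 1219 to 2092 against 4099 to 4643 CPM), Snap25 among them with a decrease of 1.86. Of 11 oligodendrocyte markers 3 fell and 0 rose (median -2.19, summed 252 to 532 against 953 to 974 CPM), and Mbp had a log2 fold change of 0.35. Of 12 astrocyte markers 1 rose and 6 fell (median -1.15, summed 12387 to 32078 against 38596 to 42002 CPM). In no list was a marker at 0 in every endfeet library. The part of these cells in the increase of Myoc, Olfml2a and Olfml3 was not tested, and more cells of a type cannot be told apart from more RNA per cell. Without a library that lacks the transgene, RNA carried along without tagged ribosomes cannot be told apart either.

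**Figure D5:**
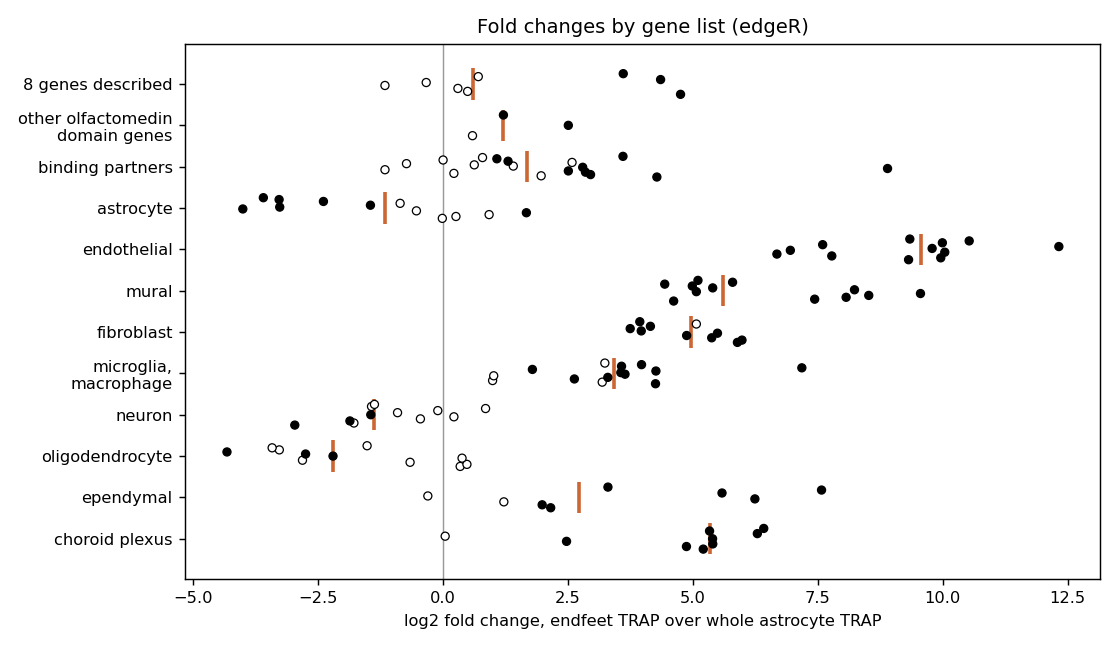
Log2 fold change of endfeet TRAP over whole astrocyte TRAP (horizontal axis) for each gene of the 8 members, the other olfactomedin domain genes, the binding partners and 9 cell type marker lists; each point is 1 gene, filled points have an adjusted p of at most 0.05 and orange bars are medians. Medians run from 9.57 for endothelial markers to -2.19 for oligodendrocyte markers, with 0.61 for the 8 members.

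The genes most like each member were taken as those with the highest Pearson correlation of log2(CPM + 1) over the 6 endfeet libraries, among 12197 genes. These values describe 6 points that share depth and library composition. For Myoc they were Asph, Nrcam and Foxred1 (r = 0.988 for each). For Olfml2a they were She (0.987), Fign (0.985) and Nynrin (0.980), and for Olfml3 they were Grina (0.9996), Hint2 (0.995) and Galnt1 (0.995). Olfm1 was closest to Atp5j2, Snapc5 and Pla1a (0.993 to 0.994), Olfm2 to 2210408I21Rik, Zc3h8 and Hist1h2bc (0.992 to 0.994) and Olfm3 to Alg3, Pxmp2 and Vip (0.996 to 0.9998). Olfml1 was closest to Man2b1, Zc2hc1a and Slc5a5 (0.976 to 0.994), and Olfml2b to Srgn, Scaf4 and Paxbp1 (0.992 to 0.993). No gene appeared beside more than 1 member. With Spearman's correlation only 2 of these 24 genes were again among the closest. Ranks of 6 libraries give few possible values, and tied genes were taken in order of their names. This overlap therefore cannot tell how far the lists rest on the choice of measure.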

How the data were processed

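RNA purified with L10a-GFP ribosomes was measured by RNA-seq in 9 libraries, grouped by their titles. Per the labels, the authors amplified the mRNA (Ovation, NuGEN), made reads with bcl2fastq 1.8.4, aligned them to mm10 with Bowtie and counted them with HTSeq 0.5.3, and by the study's methods reads aligned more than once were removed. What the authors deposited are unnormalized counts for each Ensembl transcript of each library.

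Of 75466 transcripts, 73164 were matched to GENCODE M21 (22092 genes) and 2302 were left out. Transcripts of a gene repeat reads, so for each gene the transcript with the highest CPM, summed over libraries, was used. Groups were compared with edgeR 4.0.16 (TMM, filterByExpr, quasi-likelihood test, Benjamini-Hochberg adjustment over all genes tested, threshold 0.05) in R 4.3.3, with no covariate, which replaces the DESeq2 test of the study. Normalised counts used size factors of DESeq2 1.42.0. The alternatives were DESeq2 with and without prior, limma voom (limma 3.58.1), other filters, scalings, features and thresholds, thinned libraries, the number series of the files, the replicate number as a block and each library left out. Limma voom stands throughout for voom with weights estimated for each group, which lets the groups differ in spread. The fit was also run on simulated counts with the same dispersion in both groups. The spread of these libraries differs between the groups, so that run cannot tell how the fit handles unequal spread. Python 3.11.15 (pandas 2.3.3, numpy 2.4.6) served for tables and Biopython 1.88 for protein alignment.

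Named genes are the members, the other olfactomedin domain genes, binding partners past the threshold, 10 markers and the 3 genes most like each member. Members and lists were chosen with earlier results of these data known, partners and markers from general knowledge, with 1 partner not reported here nor counted; the partners Flot1, Gria2 and Gria4 and the gene Olfm5 were named after their values were seen. The libraries of a group are taken as separate preparations; p-values measure the spread between these libraries. Library numbers did not pair the samples: deviations of same-numbered libraries correlated at -0.0427 to 0.0531, and those of other pairs at -0.0727 to 0.0627. Floors of 3 counts cover counting error only.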

Additional observations from a re-analysis of the deposited data

Results flagged for a closer look

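Olfml2a in endfeet 2 stood apart from the other endfeet libraries. With 3726 normalised counts, the gap to the next library was 0.626 of the group's whole range, just above the 95% critical value of Dixon's test for 6 samples. Without this library the log2 fold change was 4.06 (adjusted p = 3.84e-05, edgeR), beside 4.36 with it. The test was run at both ends of 8 genes (16 tests), and chance alone flags about 5% of groups.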

How the results depend on the processing

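Myoc, Olfml2a and Olfml3 passed the threshold in 21 of 21 alternatives, with log2 fold changes of 4.53 to 5.05, 3.93 to 4.50 and 3.26 to 3.84 and adjusted p-values of up to 1.82e-04, 6.50e-04 and 0.0178. The 5 other members passed in 0. The members higher (3 to 3) and lower (0 to 0) therefore kept their counts when each library was left out. Estimates that changed sign were those of Olfm1 (-0.052 with the number series as a covariate, -0.18 with endfeet 4 to 6 only), Olfm2 (-0.53 and -0.65 in these settings, -0.19 without endfeet 1, in a range of -0.19 to 0.50 without single endfeet or whole astrocyte libraries) and Olfml2b (-0.15 with the replicate block), none past the threshold, and their cause was not tested. The replicate numbers did not pair the samples. With the replicate block, 2501 genes rose and 1958 fell, 3 members rose and 0 fell, and 8 partners were called.

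Over all genes, leaving out 1 library moved the genes higher from 1874 to 3380 and those lower from 1171 to 2642. Each whole astrocyte library lowered both by over 1.5 times: without library 1, 2 or 3, 1959, 1874 and 1943 genes were higher and 1171, 1197 and 1217 lower. Limma voom called 4485 genes lower, and with each transcript as a feature 8010 were higher and 5222 lower, since there were more features. Other olfactomedin domain genes called were 1 with the series covariate and 1 to 2 without single libraries. Partners called were 5 with endfeet 4 to 6 only and 4 to 9 without single libraries (4 without whole astrocyte 1 or 2). With counts summed over transcripts and divided by the longest, 4 of 8 places in the order were kept in each group. Of the 24 most similar genes, 2 were kept with Spearman's correlation, where ties followed gene names, and 16 with a pseudocount of 0.1 CPM. Depth limits Olfml2b and Olfm3, which had 0 to 125 counts in endfeet TRAP.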
